A study of Mus musculus with 4 samples.

Results

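Expression in the frontal cortex of mice given thioridazine or olanzapine was set against expression in mice given chlorpromazine or quetiapine. Each drug has 1 array, so the comparison sets 2 of the 4 arrays of the study against the other 2. For every gene, the mean log2 ratio of the chlorpromazine and quetiapine arrays was subtracted from the mean of the thioridazine and olanzapine arrays. The pairing was chosen on these same values, because the thioridazine and olanzapine profiles correlate best over all genes. It crosses chemical class: thioridazine is a phenothiazine, like chlorpromazine, and olanzapine is a thienobenzodiazepine.

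The animals were male ddY mice, an outbred stock, 13 weeks old, injected intraperitoneally each day over 28 days. The doses were 25 mg/kg of thioridazine, 1.25 mg/kg of olanzapine, 25 mg/kg of chlorpromazine and 18.75 mg/kg of quetiapine, which the study's design text gives as equivalent, and every drug was given in saline with dilute acetic acid. On each array the RNA of drug-injected mice carried cyanine 5 and that of vehicle-injected mice cyanine 3, with no dye swap. The number of mice per array, and whether the arrays shared a single vehicle RNA, are not given in the sources used here. A vehicle RNA or dye bias common to the arrays cancels in the difference between the pairs. Every array was a slide of its own, so slide and drug cannot be told apart.

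The values were read as log10 ratios of drug over vehicle and converted to log2. That scale and direction are likely from the software and the dyes named in the labels but are not stated for the deposited table; with the opposite direction, every sign below would turn, and with log2 values every fold would be smaller. The values are ratios with no signal levels, so how strongly the cortex expressed a gene, and whether the tissue held its defining markers, cannot be read from them. In whole tissue, fewer cells of a type and less RNA per cell cannot be told apart.

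All 4 drugs are antipsychotics that block dopamine D2-type receptors, and all bind serotonin, histamine and adrenergic receptors as well. Block of muscarinic acetylcholine receptors is also known among antipsychotics, and it played no part in the choice of the pairing. In frontal cortex, dopamine, serotonin and acetylcholine adjust the firing of excitatory neurons, and firing in turn switches on immediate early genes, whose transcripts appear within minutes of activity.

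Of 16504 genes with a ratio, 16139 were measured on all 4 arrays. Over these genes, Pearson's r between the thioridazine and olanzapine arrays was 0.52. The other array pairs ranged from 0.26 for olanzapine and chlorpromazine to 0.40 for thioridazine and quetiapine, and chlorpromazine and quetiapine had 0.39. These correlations are across genes, which are not independent, and they chose the pairing. The standard deviation of the log2 ratios was 0.45 with thioridazine and 0.57 with olanzapine, against 0.32 with chlorpromazine and 0.43 with quetiapine, so the arrays of the pair were also the widest. At least 2-fold from vehicle lay 4.16% of genes with thioridazine and 7.13% with olanzapine, against 1.54% with chlorpromazine and 3.64% with quetiapine.

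A gene was counted as apart when the pair means differed by at least 1 log2 unit (2-fold) and the thioridazine and olanzapine values both lay on the same side of both other values. By this rule 294 of 16139 genes were higher with thioridazine and olanzapine, or 1.82%, and 246 were lower, or 1.52%, which makes 540 genes or 3.35% together. With no minimum on size, both arrays lay above both others for 24.5% of genes and below both for 18.6%. Pairing thioridazine with chlorpromazine gave 70 higher and 120 lower genes, and pairing it with quetiapine gave 75 and 140. The larger count of the chosen pairing follows from how it was chosen and is given as a description.

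**Figure D1:**
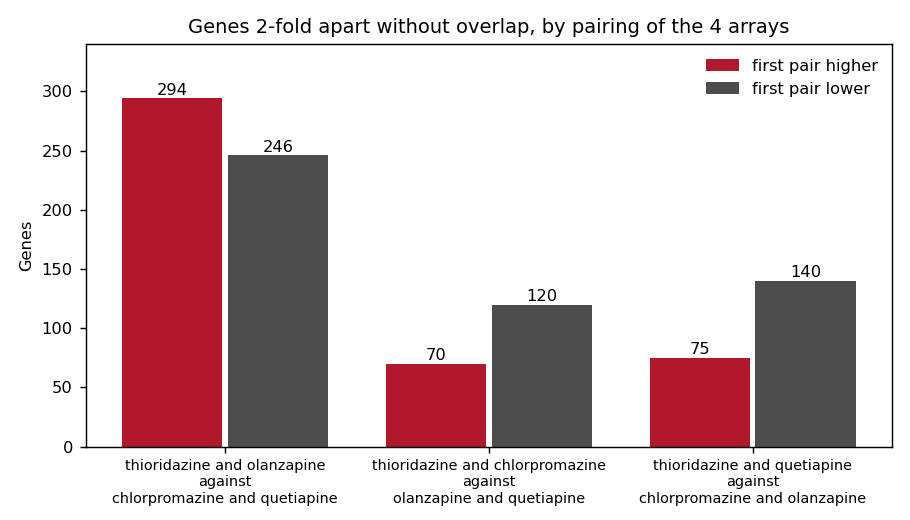
Genes whose pair means differed by at least 2-fold with no overlap between the pairs (vertical axis, number of genes), for each of the 3 ways to pair the 4 arrays (horizontal axis). Red bars count genes higher in the pair named first and grey bars genes lower in it. Thioridazine and olanzapine against chlorpromazine and quetiapine stands at 294 and 246, above the other pairings.

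With limma, fitted over all 16139 genes, 0 genes passed an adjusted p of 0.05 for this pairing, and 1408 had an unadjusted p under 0.05 (1138 with an ordinary t statistic). Since the pairing was chosen on the same arrays, these counts describe the spread within the pairs and are no test. The fit also gave each difference its standard error (SE), with a median of 0.16 log2 units, and a median 95% interval reaching 0.44 to each side. For 48 accessions spotted at least 10 times, the difference between the pairs varied between spots with a median SD of 0.17. No gene named below therefore passed a test, and each is given by its 4 values.

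Olanzapine lay further out than thioridazine for 252 of the 294 higher and 185 of the 246 lower genes. The higher genes had a median log2 ratio of 0.83 with thioridazine and 1.72 with olanzapine, against -0.02 with chlorpromazine and -0.02 with quetiapine. For the lower genes, the medians were -0.84 with thioridazine and -1.25 with olanzapine, against 0.23 with chlorpromazine and 0.28 with quetiapine. Without the olanzapine array, 535 genes met the same rule and 259 of the 540 were among them; without the thioridazine array, 485 were. After every array was scaled to the same spread, 464 genes met it and 425 of the 540 remained.

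**Figure D2:**
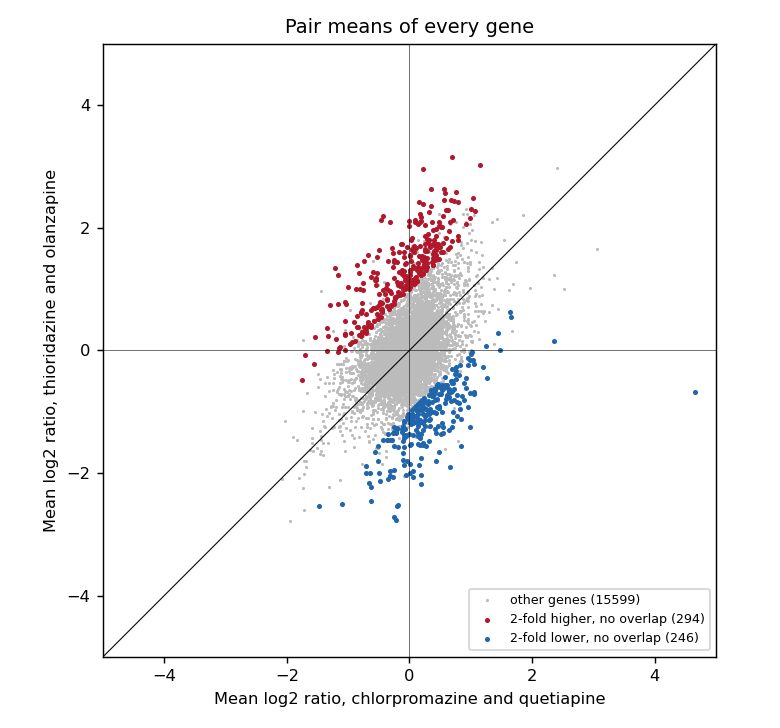
Mean log2 ratio of each gene with thioridazine and olanzapine (vertical axis) against its mean with chlorpromazine and quetiapine (horizontal axis), for 16139 genes. Red points are the 294 genes 2-fold higher without overlap, blue points the 246 lower ones, and the diagonal marks equal means. The coloured points form bands on either side of the diagonal, and the blue point alone at the far right is Sdhd.

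Among the 12 genes with the widest gap on the higher side were 3 transcription factors known from development. Sp5, a zinc-finger factor switched on by Wnt signalling, had log2 ratios of 2.90 with thioridazine and 3.42 with olanzapine, against 0.41 with chlorpromazine and 0.97 with quetiapine, a difference of 2.47 (SE 0.30). Sox8, a SoxE factor of the glial lineage, had 2.46 and 2.13 in the pair, against 0.75 with chlorpromazine and 0.50 with quetiapine, a difference of 1.67 (SE 0.18). Hes5, a repressor switched on by Notch, had 1.55 with thioridazine and 1.82 with olanzapine, against 0.29 with chlorpromazine and -0.36 with quetiapine. In all 3 genes the lowest value of the pair was more than 2-fold above the highest of the others.

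Some members of 2 marker lists were also higher in the pair, while others were lower. Fgfr3, a growth factor receptor of astrocytes, had 1.82 with thioridazine and 3.45 with olanzapine, against 0.76 with chlorpromazine and 0.37 with quetiapine. Gja1, the astrocyte gap junction protein connexin 43, had 0.67 with thioridazine and 3.59 with olanzapine, against 0.36 with chlorpromazine and -0.18 with quetiapine, so its difference of 2.04 came largely from olanzapine. Olig2, the transcription factor of the oligodendrocyte lineage, had 0.66 with thioridazine and 2.56 with olanzapine, against -0.60 with chlorpromazine and 0.27 with quetiapine. The lists as a whole did not follow: astrocyte markers had a median difference of -0.04 over 15 genes and oligodendrocyte and myelin markers of 0.07 over 17, beside 0.03 over all genes. In the astrocyte list 6 differences were above 0 and 9 below, with Aldoc at -0.48 and Ndrg2 at -0.44. In the oligodendrocyte list 9 were above 0 and 8 below. There Ugt8a was 2-fold lower, at -1.95 with thioridazine and 0.58 with olanzapine, against 0.65 with chlorpromazine and 0.70 with quetiapine. Its difference of -1.36 (SE 0.91) came largely from thioridazine, and olanzapine lay close to the other drugs.

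The other genes with the widest gaps on this side have varied roles. Alpk2, an alpha-kinase, had 2.11 with thioridazine and 2.73 with olanzapine, against 0.33 with chlorpromazine and -0.01 with quetiapine. H2-Ob, a chain of the class II-like molecule that tunes peptide loading, had 2.23 and 2.56, against 0.69 with chlorpromazine and -0.25 with quetiapine. C1ql1, a secreted C1q-like protein of synapses, had 1.49 and 1.97, against 0.14 with chlorpromazine and -0.41 with quetiapine. Nxf1, the export receptor of messenger RNA, had 1.68 and 1.93, against 0.24 with chlorpromazine and 0.39 with quetiapine. For these 4 genes the 2 arrays of the pair lay within 1 log2 unit of each other, which was not so for Tedc1, at 1.94 with thioridazine and 3.99 with olanzapine, against -0.13 with chlorpromazine and 0.58 with quetiapine.

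In 3 of the 12 genes the pairs lay on opposite sides of vehicle. Usp53 had 0.79 with thioridazine and 0.67 with olanzapine, against -1.14 with chlorpromazine and -1.44 with quetiapine, a difference of 2.02 (SE 0.16). The epidermal transcription factor Zfp750 had 0.56 and 1.89, against -1.10 with chlorpromazine and -1.23 with quetiapine. Ear6, an eosinophil-associated ribonuclease, had 0.71 and 1.28, against -1.02 with chlorpromazine and -0.60 with quetiapine. The 12th gene, Mri1 of the methionine salvage pathway, had 1.90 and 2.29 in the pair, against -1.29 with chlorpromazine and 0.65 with quetiapine, which lay far apart.

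On the lower side, Kirrel2, a cell adhesion gene of the nephrin family, had -1.13 with thioridazine and -1.37 with olanzapine, against 1.09 with chlorpromazine and 0.89 with quetiapine. Its difference of -2.24 had an SE of 0.15, and the pairs lay on opposite sides of vehicle. Cenph, a kinetochore gene, had -2.10 with thioridazine and -1.90 with olanzapine, against 0.01 with chlorpromazine and -0.01 with quetiapine. Ltv1, a factor of small ribosomal subunit assembly, had -2.06 and -1.68, against -0.07 with chlorpromazine and -0.11 with quetiapine. For Cenph and Ltv1 the other drugs stayed at the level of vehicle.

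Bmx, a Tec-family tyrosine kinase, had -2.23 with thioridazine and -2.81 with olanzapine, against 0.04 with chlorpromazine and -0.39 with quetiapine. Cyp11b2, aldosterone synthase, had -1.96 and -2.40, against 0.54 with chlorpromazine and -0.15 with quetiapine. Slc26a3, a chloride and bicarbonate exchanger, had -2.17 and -3.36, against -0.49 with chlorpromazine and 0.05 with quetiapine. Each of these 3 genes has its main known expression outside the cortex.

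Thtpa, thiamine triphosphatase, had -0.57 with thioridazine and -0.78 with olanzapine, against 1.07 with chlorpromazine and 1.05 with quetiapine. Ocel1 was near vehicle in the pair, at 0.06 with thioridazine and 0.25 with olanzapine, against 2.87 with chlorpromazine and 1.86 with quetiapine. It was 1 of only 2 genes with both chlorpromazine and quetiapine at least 2-fold above vehicle and the pair within 0.32 log2 units of it. The remaining genes of the 12 were Pramel13 (difference -2.34), the immunoglobulin gene Igkv6-20 (-2.57) and Ceacam11 (-2.11).

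Sdhd, the membrane anchor subunit of succinate dehydrogenase, had the largest difference of all, at -5.34, but its 2 arrays did not go together. It had 2.70 with thioridazine and -4.05 with olanzapine, against 4.72 with chlorpromazine and 4.62 with quetiapine. The SE of 2.42 was accordingly the widest of the named genes, and without the olanzapine array the difference was -1.96, against -8.72 without thioridazine.

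**Figure D3:**
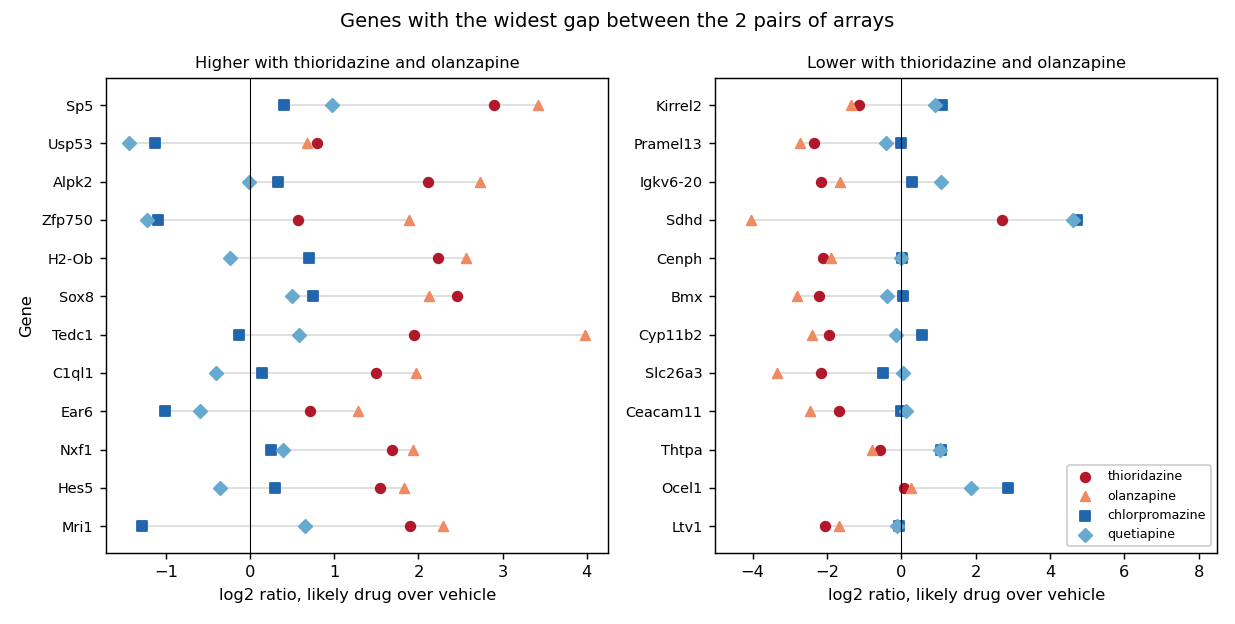
Log2 ratio of drug over vehicle (horizontal axis) on each array for the 12 genes with the widest gap between the pairs on the higher side (left) and the lower side (right). Each symbol is 1 array and the grey line spans the 4 values of a gene. The red and orange symbols of thioridazine and olanzapine lie on one side of the blue ones in every gene shown, close together in most, and furthest apart in Sdhd, at 2.70 and -4.05.

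Departures from vehicle that were large in the pair and small with the other drugs were few. In 17 genes thioridazine and olanzapine were both at least 2-fold above vehicle while chlorpromazine and quetiapine stayed within 0.32 log2 units of it, and in 14 genes the pair was at least 2-fold below under the same limit. The reverse pattern, with chlorpromazine and quetiapine 2-fold from vehicle and the pair near it, was found in 2 genes above vehicle and 0 below. The wider spread of the thioridazine and olanzapine arrays stands beside these counts.

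Of the 17 genes, Gimap9 had 1.42 with thioridazine and 1.28 with olanzapine, against 0.21 with chlorpromazine and 0.29 with quetiapine. Vil1, the microvillus protein villin, had 1.41 and 1.66, against 0.23 with chlorpromazine and 0.09 with quetiapine. Baz1a, of a chromatin remodelling complex, had 1.33 and 1.54, against 0.04 with chlorpromazine and 0.24 with quetiapine. The axonemal dynein gene Dnah17 and the polycystin-like channel gene Pkd2l2 differed by 1.15 and 1.77. Among the 14 genes below, besides Cenph, Ltv1 and Ceacam11, were the endocytosis gene Necap2, at -1.47 with thioridazine and -1.27 with olanzapine, against 0.12 with chlorpromazine and 0.25 with quetiapine, and the nicotinic receptor gene Chrnb4, described below.

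The pair lay above vehicle and the other 2 drugs below it in 727 genes, and the opposite in 827. Of these, 74 and 116 were 2-fold apart, and all 4 values were at least 1.5-fold from vehicle in 3 genes of the first kind and 1 of the second. Col15a1, a basement membrane collagen, had 0.81 with thioridazine and 0.50 with olanzapine, against -0.44 with chlorpromazine and -0.81 with quetiapine. Oaf had 0.48 and 0.52, against -0.44 with chlorpromazine and -0.42 with quetiapine. In the other direction, Zmynd10, an assembly factor of ciliary dynein, had -0.68 with thioridazine and -0.54 with olanzapine, against 0.75 with chlorpromazine and 1.10 with quetiapine. Vgll3, a cofactor of TEAD transcription factors, and the mitochondrial reductase gene Mtarc1 differed by -1.68 and -1.86.

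Gene lists were described by their counts and medians, beside the same over all genes. Members past 2-fold, or higher or lower by 2-fold, are those that met the rule above, so genes whose pairs overlapped are not counted. Of 40 lists, immediate early genes had the highest median difference, 0.35 over 31 genes against 0.03 over all genes. In 29 of 31 the difference was above 0, against 8887 of 16139 over all genes. Both arrays of the pair lay above both others in 13, or 41.9% against 24.5% over all genes, and below both in 0, against 18.6%. The pair itself did not share a direction from vehicle, since the median was -0.15 with thioridazine and 0.29 with olanzapine, against -0.10 with chlorpromazine and -0.38 with quetiapine. Olanzapine had 23 of 31 members above vehicle, thioridazine 12, chlorpromazine 12 and quetiapine 8. The median difference was 0.71 without the thioridazine array and 0.14 without olanzapine, against 0.61 without chlorpromazine and 0.19 without quetiapine.

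The largest difference of the list was that of Egr2, a zinc-finger factor of activated neurons. This gene was the 1 member past 2-fold, or 3.23% against 3.35% of all genes. It had -0.73 with thioridazine and -0.23 with olanzapine, against -1.10 with chlorpromazine and -2.40 with quetiapine. Arc, which acts at activated synapses, had -0.96 and -0.44, against -0.78 with chlorpromazine and -2.56 with quetiapine. Klf10, a growth factor-induced repressor, had -0.53 and 0.10, against -0.73 with chlorpromazine and -1.50 with quetiapine. In these 3 genes quetiapine was the lowest of the 4 arrays by more than 0.7 log2 units.

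In another group of members olanzapine stood out. Npas4, a factor induced by neuronal depolarisation, had 0.17 with thioridazine and 1.19 with olanzapine, against -0.11 with chlorpromazine and -0.09 with quetiapine. Junb had -0.15 and 0.98, against -0.30 with chlorpromazine and -0.30 with quetiapine. Fos, the best known gene of the class, had -0.14 and 0.82, against -0.43 with chlorpromazine and -0.28 with quetiapine, as the mean of 2 features. Nr4a1, an orphan nuclear receptor, had 0.16 and 0.73, against 0.11 with chlorpromazine and -0.85 with quetiapine. In these 4 genes thioridazine stayed within 0.32 log2 units of vehicle.

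Many immediate early genes are switched on through the cAMP response element, an 8-base palindrome TGACGTCA whose 5-base core TGACG binds the factor CREB. The promoter windows of Nr4a1, Npas4, Junb and Fos are shown because these genes had the largest differences among the members whose pair lay above both other drugs and that have a single window. Each window runs from 250 bases before to 50 after the gene's start in RefSeq (build GRCm38.p6) and is written 5′ to 3′ on the gene's strand. Capitals mark the core on either strand (TGACG or CGTCA). The windows are chr15:101266596-101266895 (plus strand) for Nr4a1, chr19:4989922-4990221 (minus strand) for Npas4, chr8:84978699-84978998 (minus strand) for Junb and chr12:85473640-85473939 (plus strand) for Fos.
Nr4a1: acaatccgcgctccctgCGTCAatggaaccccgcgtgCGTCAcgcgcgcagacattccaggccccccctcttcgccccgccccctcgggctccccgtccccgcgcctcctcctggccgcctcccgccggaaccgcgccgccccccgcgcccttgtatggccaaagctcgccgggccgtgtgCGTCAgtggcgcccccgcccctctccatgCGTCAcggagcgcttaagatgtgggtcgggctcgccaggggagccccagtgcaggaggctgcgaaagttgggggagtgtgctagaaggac
Npas4: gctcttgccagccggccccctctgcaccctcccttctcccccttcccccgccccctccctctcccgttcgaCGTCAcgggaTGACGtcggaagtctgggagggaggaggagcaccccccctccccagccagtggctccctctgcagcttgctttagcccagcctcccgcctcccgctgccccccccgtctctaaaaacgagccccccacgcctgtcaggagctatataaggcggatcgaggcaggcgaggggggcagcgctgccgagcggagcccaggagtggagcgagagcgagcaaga
Junb: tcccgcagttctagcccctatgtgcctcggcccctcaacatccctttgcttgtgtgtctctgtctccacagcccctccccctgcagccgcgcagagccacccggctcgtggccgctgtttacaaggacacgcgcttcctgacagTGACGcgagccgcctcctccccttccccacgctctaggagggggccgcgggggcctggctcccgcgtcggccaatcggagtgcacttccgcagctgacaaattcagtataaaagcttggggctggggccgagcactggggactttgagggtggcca
Fos: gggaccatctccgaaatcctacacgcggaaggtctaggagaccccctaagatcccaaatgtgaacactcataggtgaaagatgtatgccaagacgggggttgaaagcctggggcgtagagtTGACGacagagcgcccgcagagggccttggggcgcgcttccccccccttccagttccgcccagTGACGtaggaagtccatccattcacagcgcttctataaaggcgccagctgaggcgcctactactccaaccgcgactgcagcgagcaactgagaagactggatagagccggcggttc
Nr4a1 held 4 cores, Npas4 and Fos 2 each and Junb 1. Of the 31 list members, 25 had a window, and 18 of these, or 72.0%, held the core in at least 1 window, against 29.8% of 12947 measured genes and 20.8% of all 32851 windows. The full palindrome, which includes the core on both strands, was found in 2 members, Btg2 and Dusp1, or 8.0%, against 2.91% of the measured genes. Neither had both arrays of the pair above both others: Btg2 had -0.05 with thioridazine and 0.63 with olanzapine, against 0.01 with chlorpromazine and 0.01 with quetiapine, and Dusp1 had -0.13 and 0.37, against 0.09 with chlorpromazine and -0.38 with quetiapine. A match describes the letters of a window and is no evidence of binding.

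Glucocorticoid-responsive genes lay at the other end, with a median difference of -0.30 over 23 genes. Of these, 17 were below 0, against 7251 of 16139 over all genes. Both arrays of the pair lay below both others in 5, or 21.7% against 18.6% over all genes. The list's medians were -0.05 with thioridazine and 0.37 with olanzapine, against 0.14 with chlorpromazine and 0.87 with quetiapine. Without the quetiapine array the median difference was 0.10, on the other side of 0, while it was -0.70 without chlorpromazine and -0.12 without thioridazine.

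Sult1a1, a sulfotransferase, was the 1 member past 2-fold, or 4.35% against 3.35% of all genes. It had -0.05 with thioridazine and 0.08 with olanzapine, against 0.63 with chlorpromazine and 2.31 with quetiapine. Tsc22d3, also called GILZ, a direct target of the glucocorticoid receptor, had -0.29 and -0.41, against 0.11 with chlorpromazine and 0.87 with quetiapine. Pdk4, a kinase that slows glucose oxidation, had -0.21 and -0.68, against -0.12 with chlorpromazine and 0.83 with quetiapine. The kinase gene Sgk1 had -0.13 and 0.32, against 0.53 with chlorpromazine and 0.79 with quetiapine. In Fkbp5, a chaperone of the receptor, the pairs overlapped, with -0.05 and 0.20, against 0.09 with chlorpromazine and 0.54 with quetiapine. The metallothionein Mt2, at 0.64 with thioridazine and 2.08 with olanzapine, against 0.38 with chlorpromazine and 2.04 with quetiapine, set olanzapine beside quetiapine rather than thioridazine. Klf15 was the highest of the list by difference, at 0.67 and 0.20 in the pair, against 0.14 with chlorpromazine and 0.10 with quetiapine. Dusp1 and Per1 belong to both this list and the immediate early genes.

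**Figure D4:**
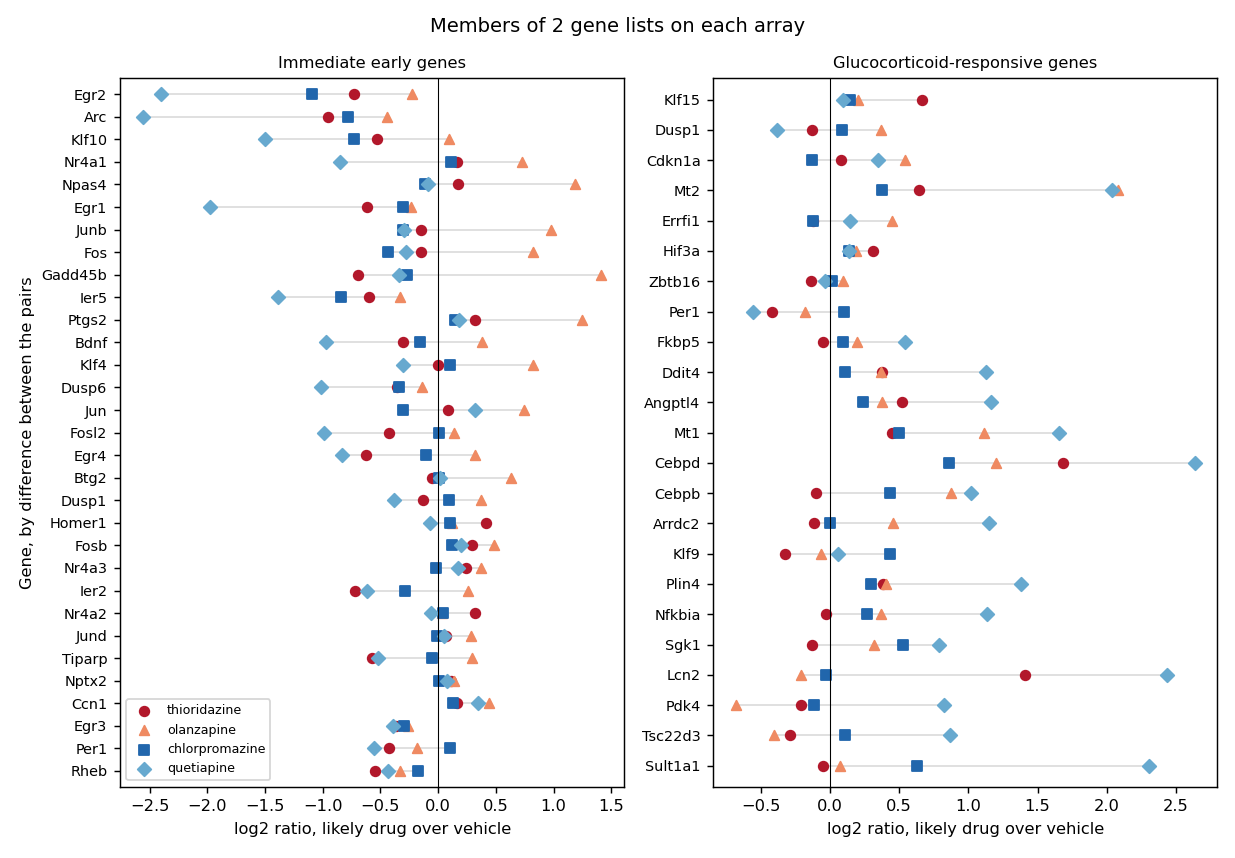
Log2 ratio of drug over vehicle (horizontal axis) on each array for the 31 immediate early genes (left) and 23 glucocorticoid-responsive genes (right), ordered from the highest to the lowest difference between the pairs. Each symbol is 1 array. On the left the olanzapine triangles lie mostly right of 0 and the quetiapine diamonds left of it, while on the right the quetiapine diamond lies furthest right in 14 of 23 genes.

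Receptors that these drugs bind are given next, by transmitter. Drd2, the D2 receptor, had 0.24 with thioridazine and 0.31 with olanzapine, against 0.08 with chlorpromazine and 0.17 with quetiapine, so the pair lay above both others by less than 0.1. Drd4, a D2-type receptor, had 0.31 and 0.83, against 0.29 with chlorpromazine and 0.27 with quetiapine. Drd1 and Drd3 overlapped between the pairs, with differences of 0.08 and 0.14. The 24 genes for dopamine receptors and signalling had a median difference of 0.08, and 1 was past 2-fold, or 4.17% against 3.35% of all genes. This was Slc6a3, the dopamine transporter, at 0.07 with thioridazine and -1.01 with olanzapine, against 0.34 with chlorpromazine and 1.17 with quetiapine. Rgs2, a brake on G-protein signalling, differed by 0.57, with -0.12 and 0.84 in the pair, against -0.03 with chlorpromazine and -0.40 with quetiapine.

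The 15 serotonin genes had a median difference of -0.05, and 1 was past 2-fold, or 6.67% against 3.35% of all genes. This was Htr4, a receptor that raises cAMP, at 0.37 with thioridazine and 0.91 with olanzapine, against -0.08 with chlorpromazine and -0.83 with quetiapine. Htr2a, a main target of newer antipsychotics, overlapped, at -0.36 and 0.41, against 0.53 with chlorpromazine and -0.01 with quetiapine. Htr1f was below in the pair, at -1.27 and -0.66, against -0.62 with chlorpromazine and -0.30 with quetiapine, with olanzapine and chlorpromazine close to each other. Htr5b and Htr7 had differences of -0.89 and -0.64 with overlap.

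Among muscarinic, histamine and adrenergic receptors, 0 of 11 measured genes were past 2-fold. Chrm3, the M3 muscarinic receptor, had 0.41 with thioridazine and 1.10 with olanzapine, against 0.35 with chlorpromazine and -0.24 with quetiapine. Chrm1, the main muscarinic receptor of cortex, overlapped between the pairs with a difference of -0.01, and Chrm2, Chrm4 and Chrm5 differed by -0.03, 0.07 and -0.31. Adra1b, an alpha-1 adrenergic receptor, had 0.71 with thioridazine and -0.07 with olanzapine, against 1.15 with chlorpromazine and 0.97 with quetiapine. Hrh1, the histamine H1 receptor, had -0.96 with thioridazine and 0.60 with olanzapine, with both other drugs between them.

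Genes for acetylcholine synthesis, breakdown and nicotinic receptors divided in both directions. Both arrays of the pair lay above both others in 6 of 18 and below both in 6, or 33.3% each against 24.5% and 18.6% over all genes, and the median difference was -0.02. Chrnb4, the beta-4 subunit, had -1.34 with thioridazine and -2.72 with olanzapine, against 0.20 with chlorpromazine and 0.17 with quetiapine. Chrna2 had -0.47 and -1.82, against -0.14 with chlorpromazine and -0.20 with quetiapine. Chrna7, the alpha-7 subunit of cortical neurons, had -0.22 and -0.97, against 0.06 with chlorpromazine and 0.03 with quetiapine. In these 3 subunits olanzapine was the lowest array. On the other side, Chrnb2 had the highest difference of the list, 1.01, though the pairs overlapped. It had 0.32 and 1.94, against 0.54 with chlorpromazine and -0.30 with quetiapine. The muscle subunit gene Chrnd had 0.43 and 0.38, against -0.24 with chlorpromazine and -0.20 with quetiapine. Slc18a3, which loads acetylcholine into vesicles, had 0.33 and 0.64, against -0.07 with chlorpromazine and 0.27 with quetiapine. Ache, the enzyme that breaks it down, had -0.04 and 0.00, against -0.35 with chlorpromazine and -0.22 with quetiapine.

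Ion channels, glutamate and GABA genes had few members past 2-fold. Grik3, a kainate receptor subunit, had 1.21 with thioridazine and 3.02 with olanzapine, against 0.06 with chlorpromazine and -0.06 with quetiapine. It was the 1 of 31 glutamate receptor and scaffold genes past 2-fold without overlap, or 3.23% against 3.35% of all genes. Of 59 potassium channel genes 2 were past it, both higher, or 3.39% against 3.35% of all genes. Kcna3 had 0.88 and 1.99, against -0.33 with chlorpromazine and -0.17 with quetiapine, and Kcnj5, an inward rectifier opened by G proteins, had 1.05 and 3.29, against -0.04 with chlorpromazine and 0.43 with quetiapine. In all 3 genes olanzapine was more than 1 log2 unit above thioridazine. Of 20 GABA genes and 30 sodium and calcium channel genes 0 were past 2-fold without overlap. Over the GABA genes the median difference was -0.09, with 8 above 0 and 12 below. The lowest were Gabra6 and Slc6a11, with differences of -0.77 and -0.48. Gabrr2, a rho subunit, was the highest of the GABA genes, at 0.60 and 0.66, against -0.21 with chlorpromazine and -0.14 with quetiapine.

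G-protein subunits and RGS proteins had a median difference of 0.10 over 52 genes, with both arrays of the pair above both others in 13, or 25.0% against 24.5% over all genes, and below both in 2, or 3.85% against 18.6%. The median difference was 0.05 without the thioridazine array and 0.06 without quetiapine. Gng7, a gamma subunit that couples dopamine and adenosine receptors in striatal neurons, had 0.88 with thioridazine and 1.99 with olanzapine, against -0.22 with chlorpromazine and 0.10 with quetiapine. Gna13 had 0.59 and 1.58, against 0.28 with chlorpromazine and 0.19 with quetiapine. Of 51 Akt, GSK3 and Wnt signalling genes 1 was past 2-fold, or 1.96% against 3.35% of all genes. This was Dkk1, a secreted Wnt antagonist, at 1.25 and 1.03, against 0.19 with chlorpromazine and 0.04 with quetiapine. Akt1 and Gsk3b, kinases that act downstream of the D2 receptor, differed by -0.18 and 0.19.

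Neurotrophins and their receptors had a median difference of 0.11 over 15 genes, with both arrays of the pair above both others in 6, or 40.0% against 24.5% over all genes, and below both in 0, against 18.6%. Without the thioridazine array the median difference was 0.06. Nrtn, neurturin, had 0.08 with thioridazine and 0.94 with olanzapine, against -0.37 with chlorpromazine and -0.30 with quetiapine. Artn, artemin, had 0.65 and 0.10, against -0.51 with chlorpromazine and -0.10 with quetiapine. Bdnf, which is also an immediate early gene, overlapped at -0.31 and 0.38, against -0.16 with chlorpromazine and -0.97 with quetiapine. The receptor genes Ntrk2 and Ntrk3 differed by -0.11 and 0.21, and without the olanzapine array the difference of Ntrk2 was 0.10.

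Interneuron and neuropeptide genes had a median difference of 0.14 over 18, with 11 above 0, 7 below and 0 past 2-fold. The lowest were Cort and Calb1, with differences of -0.55 and -0.53. Calb2 was the highest at 0.66, but its difference was -0.55 without the thioridazine array. Reln, the secreted protein of superficial interneurons, had 0.43 with thioridazine and 0.04 with olanzapine, against -0.38 with chlorpromazine and -0.19 with quetiapine. Cck had 0.07 and 0.15, against -0.43 with chlorpromazine and -0.25 with quetiapine, and Npy had 0.35 and 0.51, against 0.10 with chlorpromazine and 0.03 with quetiapine. Vip, in turn, was lower in the pair, at -0.04 and -0.08, against 0.28 with chlorpromazine and 0.21 with quetiapine. Over 21 excitatory neuron and layer markers the median difference was 0.07, with 12 above 0 and 9 below. Both arrays of the pair lay above both others in 19.0% and below both in 14.3%, against 24.5% and 18.6% over all genes. Nrgn and Crym were the lowest, with differences of -0.48 and -0.39, and Crym overlapped between the pairs. The 2 markers past 2-fold (9.52% against 3.35% of all genes) were both higher. Foxp2, a factor of deep-layer neurons, had 1.23 and 0.75, against -0.16 with chlorpromazine and -0.55 with quetiapine. Rasgrf2, a marker of upper layers, had -0.34 and 0.21, against -1.10 with chlorpromazine and -2.31 with quetiapine. Among 28 synaptic vesicle genes 0 were past 2-fold, and the median difference was 0.10, with 19 above 0 and 9 below. Both arrays of the pair lay above both others in 35.7% and below both in 21.4%, against 24.5% and 18.6% over all genes. Syn2 was the highest, at 0.20 and 0.52, against -0.39 with chlorpromazine and -0.53 with quetiapine. Synaptophysin (Syp) was the lowest, at -0.50 and -0.67, against 0.36 with chlorpromazine and -0.24 with quetiapine.

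The neutrophil granule and acute-phase lists did not divide the drugs along this pairing. Neutrophil granule genes had medians of 0.30 with thioridazine and 0.25 with olanzapine, against 0.01 with chlorpromazine and 0.65 with quetiapine, and acute-phase genes had 0.55 and 0.41, against 0.06 with chlorpromazine and 0.65 with quetiapine. In both lists chlorpromazine was lowest and quetiapine highest, on either side of the pair. The median difference of the neutrophil list was -0.14, with 0.47 without the quetiapine array and -0.40 without chlorpromazine. Single members did differ: the cytokine Il1b had -0.83 with thioridazine and -1.43 with olanzapine, against -0.39 with chlorpromazine and 0.88 with quetiapine. The chemokine Ccl4 had -0.93 and -1.76, against 0.00 with chlorpromazine and 0.27 with quetiapine. The plasma protein gene Orm1 was higher in the pair, at 1.41 and 1.97, against 0.50 with chlorpromazine and 0.83 with quetiapine. Interferon-stimulated genes had a median difference of 0.12 over 32, with 25 above 0, against 8887 of 16139 over all genes. Both arrays of the pair lay above both others in 21.9% and below both in 6.25%, against 24.5% and 18.6% over all genes. Irf7 differed by 1.38, but the pairs overlapped. Only Ddx58, which encodes the RNA sensor RIG-I, was past 2-fold without overlap, or 3.1% of the list against 3.35% of all genes. It had 1.04 and 1.89, against 0.41 with chlorpromazine and -1.13 with quetiapine. Of 47 chemokine and receptor genes 2 were higher and 3 lower by 2-fold, or 10.6% against 3.35% of all genes.

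Microglia and macrophage markers had a median difference of 0.19 over 18 genes, with 15 above 0, against 8887 of 16139 over all genes, and 0 past 2-fold. Their medians were 0.29 with thioridazine and 0.08 with olanzapine, against -0.17 with chlorpromazine and 0.08 with quetiapine. The median difference was 0.06 without the thioridazine array, 0.07 without chlorpromazine and 0.34 without quetiapine. Cx3cr1, the fractalkine receptor of microglia, had 0.27 with thioridazine and 0.50 with olanzapine, against 0.06 with chlorpromazine and 0.08 with quetiapine. The integrin gene Itgam had 0.30 and 0.00, against -0.44 with chlorpromazine and -0.25 with quetiapine.

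Red blood cell genes had a median difference of -0.22 over 16, with 12 below 0 and 2 past 2-fold. Over all genes, 7251 of 16139 were below 0 and 3.35% were past 2-fold. Without the olanzapine array the list's median difference was -0.02, without quetiapine -0.09 and without thioridazine -0.47. Rhd, a Rhesus blood group protein, had -1.61 with thioridazine and -2.48 with olanzapine, against -0.69 with chlorpromazine and 0.06 with quetiapine. Epb42 had -1.01 and -1.14, against -0.02 with chlorpromazine and 0.54 with quetiapine, and the anion exchanger Slc4a1 had -0.47 and -0.44, against 0.04 with chlorpromazine and 0.30 with quetiapine. Rhag, whose protein joins Rhd's in the red cell membrane, overlapped, at 0.35 and 0.89, against 0.66 with chlorpromazine and 0.99 with quetiapine. In 2 haemoglobin genes the arrays of the pair lay on opposite sides of vehicle: Hba-a1 had 0.91 with thioridazine and -1.87 with olanzapine, against -0.25 with chlorpromazine and 0.18 with quetiapine, and Hbb-b2 had 1.16 and -1.74, against -0.29 with chlorpromazine and 0.40 with quetiapine. Near-identical haemoglobin copies may share these probes.

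Among 21 endothelial and pericyte markers 1 was past 2-fold without overlap, or 4.76% against 3.35% of all genes. This was Abcb1a, the P-glycoprotein drug pump of the blood-brain barrier. It had -0.83 with thioridazine and -1.19 with olanzapine, against 0.65 with chlorpromazine and 0.40 with quetiapine, a difference of -1.53 (SE 0.19). Pecam1, an adhesion molecule of endothelium, had -0.29 and -0.75, against 0.20 with chlorpromazine and 0.61 with quetiapine. By contrast Vwf, of endothelial storage granules, had 1.32 and 1.29, against 0.44 with chlorpromazine and 0.60 with quetiapine, so the markers did not share a direction, and the median difference was 0.04. Of the ABC transporters, Abcd3 of peroxisomes had -1.05 and -2.29, against -0.05 with chlorpromazine and -0.15 with quetiapine, and Abcc1, another drug pump, had 0.93 and 4.35, against 0.32 with chlorpromazine and 0.38 with quetiapine. Of 85 genes for cytochromes P450 and conjugating enzymes, 5 were higher and 3 lower by 2-fold, or 9.41% against 3.35% of all genes. Cyp1a2, which metabolises olanzapine in liver, had 1.04 with thioridazine and 1.49 with olanzapine, against 0.47 with chlorpromazine and -2.11 with quetiapine.

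Lists of proteasome, ribosomal protein, matrix, heat shock and cholesterol synthesis genes had median differences no further from 0 than 0.14. Proteasome subunits had a median difference of -0.06 over 33 genes, with 23 below 0, against 7251 of 16139 over all genes. Both arrays of the pair lay below both others in 10, or 30.3% against 18.6% over all genes, and above both in 1, or 3.03% against 24.5%. Psmc5, an ATPase of the regulatory particle, had -0.56 with thioridazine and -1.10 with olanzapine, against 0.31 with chlorpromazine and -0.53 with quetiapine, and Psma6 of the core had -0.30 and -0.47, against -0.15 with chlorpromazine and 0.13 with quetiapine. Cytosolic ribosomal protein genes had a median difference of 0.07 over 67, with 51 above 0, against 8887 of 16139 over all genes. Their medians were 0.03 and 0.06, against -0.11 with chlorpromazine and 0.01 with quetiapine. Collagen and laminin genes had a median difference of 0.14 over 48, with 35 above 0, against 8887 of 16139 over all genes. Both arrays lay above both others in 20 collagen and laminin genes, or 41.7% against 24.5%, and below both in 9, or 18.8% against 18.6%. Heat shock genes had a median difference of 0.00 over 34, though all 4 arrays had medians below 0. Cholesterol synthesis genes had a median difference of 0.07 over 28, with 19 above 0 and 9 below. The highest were Fdps and Hmgcs1, with differences of 0.56 and 0.39. The regulator gene Insig1 and the sterol carrier gene Stard4 were the lowest. Stard4 had -0.44 and -0.40, against 0.24 with chlorpromazine and 0.57 with quetiapine.

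**Figure D5:**
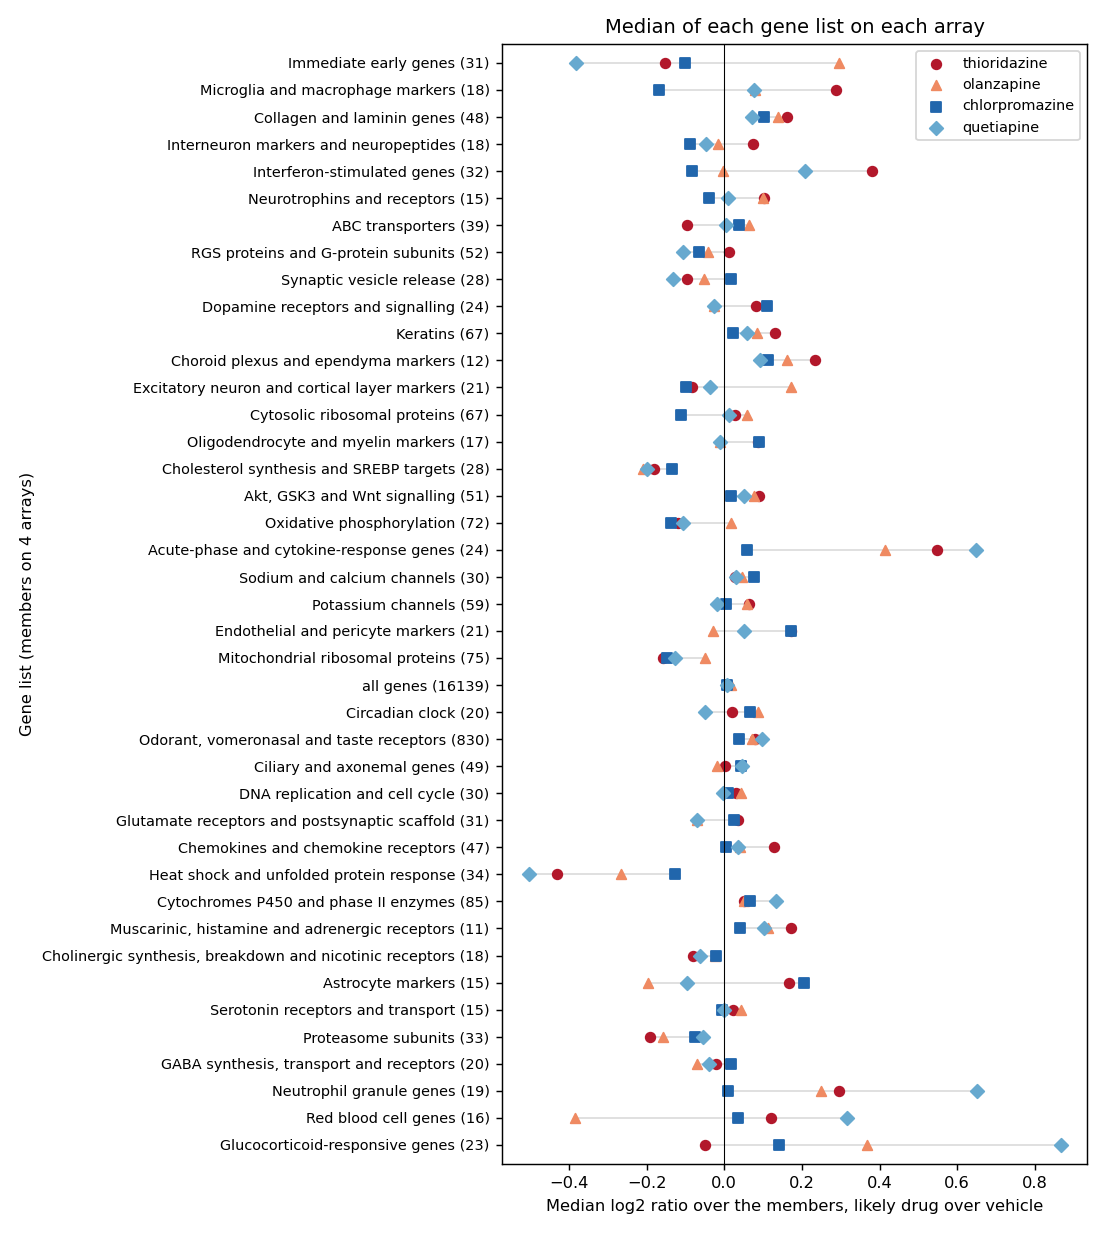
Median log2 ratio over the members (horizontal axis) of 40 gene lists and of all genes on each array, with the number of members measured on 4 arrays in brackets. Lists run from the highest to the lowest median of the members' differences between the pairs, and overlapping symbols hide each other. Immediate early genes head the order at 0.35 and glucocorticoid-responsive genes close it at -0.30; the quetiapine diamond is the lowest symbol of the first list and the highest of the second.

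Receptor genes of the sensory epithelia, which have little known role in cortex, were counted by the same rule. Of 830 odorant, vomeronasal and taste receptor genes, 9 were higher and 14 lower by 2-fold without overlap, which is 2.77% against 3.35% of all genes. Both arrays of the pair lay above both others in 24.9% and below both in 19.2%, close to the shares over all genes. Of the 16139 genes 1193 had several features, but only 11 of the 540. In 5 of the 7 higher and 3 of the 4 lower ones every feature pointed the same way, and all features were past 2-fold in 0 of the higher and 2 of the lower ones.

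The base composition of promoters, which played no part in the choice, was compared last. Of the 540 genes, 239 higher and 196 lower ones had a RefSeq window. The median GC content was 54.5% for the higher and 55.7% for the lower genes, against 58.3% over 12947 measured genes with a window. The median number of CpG dinucleotides in 300 bases was 9 and 14, against 17. In the fifth of genes with the lowest promoter GC content, 2.52% were higher and 2.07% lower by 2-fold; in the fifth with the highest, the shares were 0.889% and 1.58%. The median difference between the pairs was 0.03 in both of these groups.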

How the data were processed

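Ratios of drug over vehicle were measured on 4 Agilent mouse oligonucleotide arrays, 1 per drug. The authors read the images with Agilent Feature Extraction 7.1 and normalised the dyes by LOWESS after rank consistency filtering, per the labels. The deposited values are log10 ratios as read here from that software, with scale, direction and centring unstated for the table. Medians of the deposited values were 0, or 0.00376 with olanzapine. Of the table's 22393 features, 18218 had 1 gene symbol in the platform annotation, 16 had several and 4159 were unnamed here; 18175 took their current symbol from RefSeq by Entrez identifier. Values of exactly 0 (198 to 594 per array) were taken as missing, and features were averaged per gene after conversion to log2. Of 16504 genes, 365 lacked a value on an array and were left out. The low number of arrays limits the precision, and p-values measure only the spread between these 4 arrays.

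The fit was made with limma 3.58.1 in R 4.3.3 (lmFit and eBayes, Benjamini-Hochberg at 0.05) and was tested on simulated data. Genes were picked for naming as the 12 widest gaps on each side, up to 5 genes per sign pattern, and the 2 highest and 2 lowest members of each list. For many lists only some of the picked members, or none, are given in the text. Further members of lists were chosen after their values were seen. Clone-style names and odorant, vomeronasal and taste receptors were not named singly. The pairing, members and lists were chosen with earlier results of these data known. The alternatives were the log base, zeros kept, every feature on its own, arrays centred or scaled to one spread, each array left out, a 1.5-fold minimum, and robust or no moderation.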

Additional observations from a re-analysis of the deposited data

How the results depend on the processing

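Of the main counts, 294 genes higher and 246 lower by 2-fold, most alternatives gave numbers within 1.5 times: zeros kept, every feature on its own, arrays centred and arrays scaled. With a 1.5-fold minimum the counts were 748 and 730, and if the deposited values were log2 already they would be 0 and 1. Leaving out 1 array moved the higher count between 230 and 675 and the lower count between 305 and 457; without thioridazine the counts were 675 and 457, without olanzapine 230 and 305, without chlorpromazine 483 and 377 and without quetiapine 377 and 336. Limma called 0 genes under each of its 11 alternatives, with 928 to 1959 genes at an unadjusted p under 0.05. Of the 186 genes picked for naming, not all of which are given in the text, 74 were 2-fold apart without overlap. Of these 74, 0 changed sign in the 9 alternatives. Since their pairs do not overlap, leaving out 1 array or changing the log base could not turn their sign. Of the other 112, 26 changed sign with at least 1 array left out. For the lists, 21 of 40 list medians kept 1 sign in all 9. No paired analysis was possible because each drug has a single array and the labels carry no replicate numbers. The arrays give no signal over background, so dim genes could not be set aside.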
